A study of Mus musculus with 56 samples.

Results

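Mitochondrial ribosomal protein genes are the nuclear genes whose products, together with the rRNAs encoded in mitochondrial DNA, form the ribosome of the mitochondrion. Members were taken by symbol, as protein-coding genes named Mrpl or Mrps followed by a number, which gave 78 of the 57010 gene rows. The study counted 3′ ends of transcripts in mouse gastrocnemius, a fast calf muscle, at 20 to 22 weeks of age. All mice carried the ribosomal protein L10A with a GFP tag, switched on by Cre recombinase under the Mlc1f promoter, which is active in fast muscle fibres. HuR is an RNA-binding protein, and the knockouts had loxP sites around its gene, Elavl1, so that the same Cre removes it. The design text says no more of the controls than that they are controls of these mice. The 8 groups were female HuR knockout, female control, male HuR knockout and male control mice, each with ribosomal RNA and with total RNA, and each held 7 libraries. Ribosomal RNA is the RNA that came down with the tagged ribosomes, and total RNA was taken from the whole homogenate.

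The mitochondrial ribosome translates the few mRNAs of mitochondrial DNA, which encode core subunits of the oxidative phosphorylation complexes. Its proteins are made on cytosolic ribosomes and imported. Some descend from bacterial ribosomal proteins and others are found only in mitochondria, and large and small subunits hold both kinds. In skeletal muscle, loss of mitochondrial translation lowers respiratory capacity, and human mutations in several of these genes cause muscle or heart disease.

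By subunit, 30 members were large-subunit proteins with a bacterial counterpart, 21 were large-subunit proteins found only in mitochondria, 16 were small-subunit proteins with a bacterial counterpart and 10 were small-subunit proteins found only in mitochondria. Mrps18a and Mrps30 were placed with the large subunit, where their proteins sit despite their names. The remaining member, Mrps36, carries the family's name but is now known as part of the oxoglutarate dehydrogenase complex. Members lay on 17 chromosomes, with 11 on chromosome 11 and 8 on chromosome 17.

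RefSeq holds a promoter window of 250 bases before to 50 bases after the start for 69 of the 78 members. The windows were searched on both strands for letters of 4 sites known from genes of mitochondria: NRF1 as GCGC and TGCGC with 1 base between them, an ETS factor site as CCGGAAGT, YY1 as AAGATGGCG, and an E-box as CACGTG. No motif contains another. An NRF1 match was in 13 of the 69 members (18.8%), against 11.7% of 9322 genes that were tested and have a window, and 4.6% of all 32851 windows. The ETS letters were in 12 members (17.4%), against 9.22% of tested genes and 3.89% of all windows. YY1 letters were in 8 members (11.6%), against 3.74% and 1.4%. E-box letters were in 5 members (7.25%), against 11.9% and 7.15%. A match describes letters in the window and no binding was measured.

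The 150 bases before the start are shown for 4 members whose level passed a test below, with the match in capitals. They are from RefSeq on GRCm38.p6 and run 5′ to 3′ on the strand of the gene. Mrpl17 (chr7:105811088-105811237, minus strand) and Mrps21 (chr3:95871515-95871664, minus strand) hold NRF1 letters, which begin 49 and 91 bases before the start. Mrpl3 (chr9:105053118-105053267, plus strand) and Mrpl43 (chr19:45006443-45006592, minus strand) hold ETS letters 19 and 12 bases before it.
Mrpl17: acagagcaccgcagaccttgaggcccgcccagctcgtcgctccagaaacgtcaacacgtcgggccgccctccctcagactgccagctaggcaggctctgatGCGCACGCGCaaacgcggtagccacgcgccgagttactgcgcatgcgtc
Mrps21: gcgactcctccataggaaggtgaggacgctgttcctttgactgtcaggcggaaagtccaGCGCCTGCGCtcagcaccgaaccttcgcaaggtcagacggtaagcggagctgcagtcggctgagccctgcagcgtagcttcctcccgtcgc
Mrpl3: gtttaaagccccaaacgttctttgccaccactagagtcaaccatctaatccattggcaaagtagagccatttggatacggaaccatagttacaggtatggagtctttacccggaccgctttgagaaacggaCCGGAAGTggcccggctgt
Mrpl43: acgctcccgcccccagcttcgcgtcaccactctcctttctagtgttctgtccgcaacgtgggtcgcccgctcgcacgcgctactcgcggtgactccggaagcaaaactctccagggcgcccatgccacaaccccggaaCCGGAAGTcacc

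Ribosomal libraries held 160313 to 3579221 counts and total libraries 2427655 to 5848058. Members took 890 to 32549 counts of a ribosomal library and 12536 to 40792 of a total library, and between 73 and 78 of them had at least 1 count. Levels are given as CPM, the count relative to the scaled size of the library, with 1 count per transcript end, so they are not divided by length and are not compared between genes. Mrpl53 (24 counts over all 56 libraries), Mrps18b (155) and Mrpl23 (277) were too low to test, and Mrps36 (602) was tested in total RNA and across RNA types but not in ribosomal RNA. That left 74 members tested in ribosomal RNA and 75 elsewhere. Exons of 28 members overlap those of a gene on the other strand, and exons of 8 those of a gene on the same strand. The use of strand in the counting is not given in the sources used here. The counting set aside 0.417 to 0.621% of reads as ambiguous in ribosomal and 0.463 to 0.653% in total libraries, so members with such overlaps can lose reads. Elavl1 itself was at 91.5 to 164 CPM in female knockout and 81.2 to 131 in female control ribosomal libraries, and at 52 to 117 and 55.4 to 81.5 CPM in those of males. In total libraries of both sexes together it was at 43.4 to 81.1 CPM in knockouts and 53.6 to 101 CPM in controls. Where the counted 3′ ends lie relative to the deleted part was not examined. These counts therefore do not check the deletion, and knockout below means labelled knockout. Marker transcripts of muscle fibres, a list of 12, summed to 92507 to 325450 CPM in ribosomal and 35724 to 68658 CPM in total libraries.

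The first comparison was ribosomal against total RNA within control mice. Members were higher in ribosomal RNA nearly throughout. Their summed level ran from 8317 to 11309 CPM (median 9484) in the 14 control ribosomal libraries and from 4350 to 4939 CPM (median 4747) in the 14 control total libraries. The ranges of the groups did not overlap, and the summed levels of knockout libraries showed the same separation, with 7298 to 10813 CPM in ribosomal and 4482 to 5523 CPM in total RNA.

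**Figure D1:**
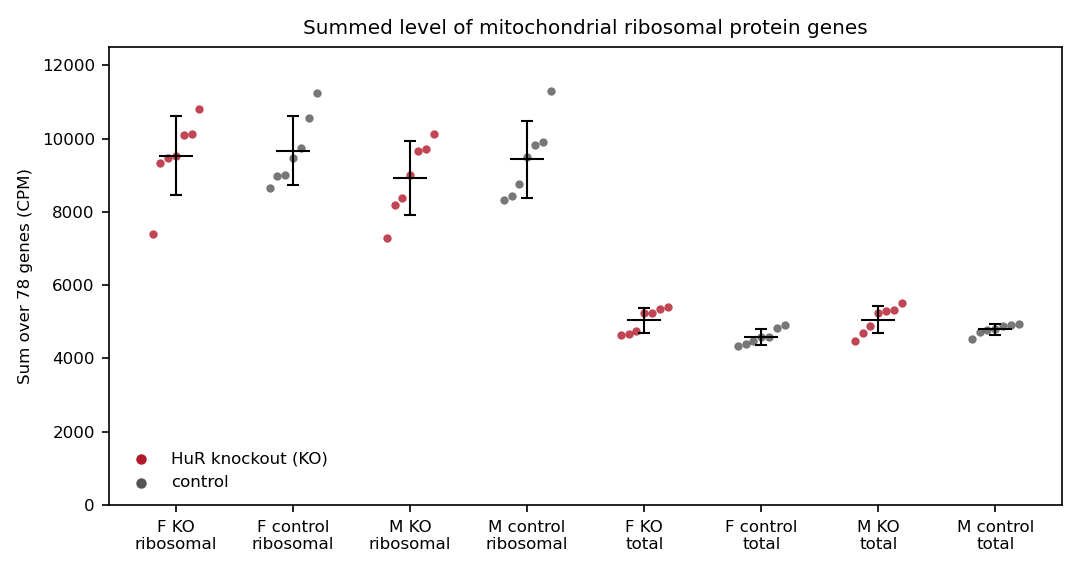
Summed level of the 78 mitochondrial ribosomal protein genes in each library (y axis, CPM) in the 8 groups (x axis, 7 libraries each); points are libraries, horizontal marks the mean and bars the SD. Ribosomal libraries sit between 7298 and 11309 CPM, all above the total libraries, which sit between 4350 and 5523 CPM.

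Of 75 members tested, 67 were higher in ribosomal RNA and 0 lower at an adjusted p under 0.05 (edgeR's quasi-likelihood test, Benjamini-Hochberg over 12546 genes). That is 89.3% of members, where 35.2% of all genes tested were higher and 78.2% were called in either direction; 43.1% of all genes tested were lower. The median member stood at a log2 fold change of 0.87, a 1.83-fold difference, with quartiles of 0.62 and 1.17, and the median of all genes was −0.10. In 36 members (48% of 75) every control ribosomal library lay above every control total library, which held for 10.2% of the 12546 genes. Libraries with the same number were paired as 1 mouse. So paired, 36 members (48%) were higher in ribosomal RNA in all 14 knockout mice, against 11.7% of genes. In all 14 control mice 47 members (62.7%) were, against 16.3% of genes.

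Mrps12, at the decoding centre of the small subunit, differed most. It had a lowest, median and highest level of 238, 306 and 424 CPM in control ribosomal libraries and 78.4, 96.4 and 111 CPM in control total libraries. The log2 fold change was 1.68 (SE 0.10, adjusted p = 8.32e-24), and every ribosomal library lay above every total library. Mrps16 of the small subunit, with 307, 366 and 578 CPM in ribosomal and 88.3, 126 and 166 CPM in total RNA, had a log2 fold change of 1.68 (SE 0.09).

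Large-subunit proteins with a bacterial counterpart followed closely. Mrpl2, which lies near the site of peptide bond formation, had 124, 164 and 277 CPM in ribosomal and 48.3, 57.5 and 69.7 CPM in total RNA, a log2 fold change of 1.58 (SE 0.09). Mrpl12 forms the stalk that contacts elongation factors, and it had 291, 395 and 590 CPM in ribosomal and 108, 133 and 200 CPM in total RNA (log2 fold change 1.49, SE 0.08). Log2 fold changes of Mrpl15 and Mrpl28 were 1.58 and 1.53. Among members found only in mitochondria, Mrpl37 reached 1.46 and Mrps33 reached 1.46. None of these 8 members had overlapping groups, and all were higher in ribosomal RNA in 14 of 14 control mice.

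Mrpl58, a peptidyl-tRNA hydrolase that rescues stalled ribosomes and became part of the large subunit, had a log2 fold change of 1.23 (SE 0.09). The Mrps18 genes encode 3 related proteins with places in different subunits. Mrps18a stood at 0.84 (SE 0.07) and Mrps18c at 0.88 (SE 0.09), and Mrps18b was too low to test.

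The 4 subunit classes had medians between 0.75 and 0.92. Large-subunit members had medians of 0.92 (bacterial counterpart, 26 of 29 higher) and 0.86 (mitochondria only, 20 of 20 higher). Small-subunit members had medians of 0.75 (13 of 16 higher) and 0.88 (8 of 9 higher). Subunits of the mitochondrial ribosome that carry other names were higher in 5 of 5, with a median of 1.24, among them Aurkaip1 (1.52), Gadd45gip1 (1.46) and the GTP-binding Dap3 (1.24).

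Other genes of mitochondrial translation moved the same way in most cases. Translation factors were higher in 9 of 12, with a median of 0.61; Tsfm, the elongation factor EF-Ts, stood at 1.29. Assembly factors were higher in 16 of 24 and lower in 3, with a median of 0.71, and tRNA synthetases of mitochondria were higher in 10 of 17 and lower in 2. For nuclear subunits of oxidative phosphorylation the counts were 75 higher and 1 lower of 80 (median 0.98), and for cytosolic ribosomal proteins 59 higher and 7 lower of 80 (median 0.66). All 8 mRNAs of mitochondrial DNA that were tested, which are translated inside mitochondria and not by the tagged ribosome, were lower, with a median of −3.32.

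**Figure D2:**
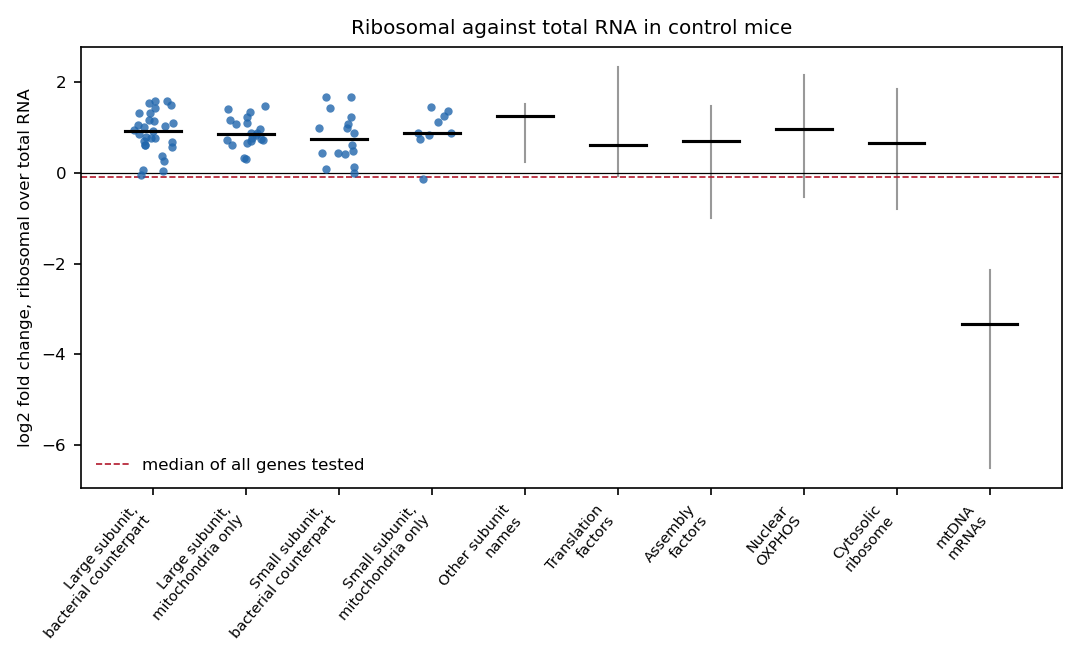
Log2 fold change of ribosomal over total RNA in control mice (y axis) for members by subunit class (points, with the median as a bar) and for other lists (grey line from lowest to highest gene, bar at the median). Member medians lie between 0.75 and 0.92, the dashed line marks the median of all genes at −0.10, and mRNAs of mitochondrial DNA lie at a median of −3.32.

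The 8 members that did not pass, chosen for mention after their values were seen, were Mrpl3, Mrpl30, Mrpl32, Mrps2, Mrps14, Mrps21, Mrps22 and Mrps36. Mrps14 had 63.5, 119 and 194 CPM in control ribosomal and 89.7, 115 and 127 CPM in control total libraries, with a log2 fold change of 0.09. Mrpl3 had 47.2, 65.1 and 92.7 CPM in ribosomal and 65.4, 71 and 80.7 CPM in total RNA. In both, ribosomal libraries lay on either side of the total ones. Within knockouts, a comparison that was not planned, 59 members were higher in ribosomal RNA and 5 lower (85.3% called, against 75.9% of genes). The lower ones were Mrps21 (log2 fold change −0.81), Mrps22 (−0.41), Mrpl3 (−0.39), Mrps14 (−0.37) and Mrpl32 (−0.25).

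All tested markers of endothelium (8 of 8), fibroblasts (8 of 8), smooth muscle (6 of 6), macrophages (8 of 8), Schwann cells (5 of 5), adipocytes (6 of 6) and red blood cells (5 of 5) were called lower in ribosomal RNA. Those of satellite cells were lower in 2 of 3, at a sum of 41.1 to 72.2 CPM in control ribosomal and 48.5 to 79.6 CPM in control total libraries. Endothelial and fibroblast sums were 63 to 127 and 220 to 381 CPM in control ribosomal libraries, against 417 to 517 and 1349 to 2871 CPM in control total libraries. Total RNA is bulk tissue, where fewer cells of a type and less RNA per cell cannot be told apart, and the part of these cells in the members' difference was not tested. With RLE size factors or DESeq2 the median of all genes shifted to −0.33, 62 members were higher and 5 (Mrpl3, Mrpl30, Mrpl32, Mrps2 and Mrps22) were lower.

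Features of the transcripts were read from GENCODE M21. The 75 tested members had a median coding length of 588 bases, against 1386 bases in 11246 tested protein-coding genes, and a median 3′ UTR of 329 bases, against 1028. HuR binds AU-rich stretches, and the letters ATTTA were in the 3′ UTR of 42 members (56%), against 67.7% of tested genes. Members with ATTTA had a median log2 fold change between RNA types of 0.80 and those without it 0.88. Among all tested genes the corresponding medians were −0.25 and 0.23. Across the 75 members, Spearman's rho of that fold change was 0.06 with coding length and −0.03 with 3′ UTR length, against −0.27 and −0.21 across the 11246 genes, which share the same libraries.

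The effect of HuR knockout was then compared within each sex and RNA type. In ribosomal RNA of females, 2 members were higher and 10 lower in knockouts, 12 of 74 (16.2%), where 16.8% of the 9098 genes tested were called. Of members 2.7% were higher and 13.5% lower, against 8.44% and 8.41% of all genes. The median member stood at −0.03 and that of all genes at −0.02. Summed member levels were 7386 to 10813 CPM in female knockouts and 8648 to 11245 CPM in female controls, which overlap.

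Mrps21, a small-subunit protein, fell furthest. Female knockout ribosomal libraries had a lowest, median and highest level of 4.1, 9.1 and 15.6 CPM and female control libraries 12.6, 23.1 and 34.1 CPM. The log2 fold change was −1.43 (SE 0.37, adjusted p = 0.00682), and the groups overlapped at their edges. Knockout libraries held 491405 to 1207021 counts over all genes, so these levels of Mrps21 rest on few reads. Mrps14, another small-subunit protein with a bacterial counterpart, had 57.5, 60.4 and 91 CPM in knockouts and 63.5, 108 and 194 CPM in controls (log2 fold change −0.75, SE 0.19, adjusted p = 0.00667). All knockout libraries but the highest lay within 57.5 to 65.3 CPM.

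In the large subunit, Mrpl43 and Mrpl3 fell as well. Mrpl43, found only in mitochondria, had 43.1, 59.5 and 87.1 CPM in female knockouts and 75, 103 and 158 CPM in female controls, a log2 fold change of −0.69 (SE 0.16, adjusted p = 0.00333). Mrpl3, mutated in a human cardiomyopathy, had 15.6, 45.5 and 53.9 CPM in knockouts and 47.2, 61.7 and 92.7 CPM in controls, a log2 fold change of −0.65 (SE 0.16, adjusted p = 0.0047). Exons of Mrpl43 overlap Twnk on the other strand.

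Mrpl40 (−0.68), Mrpl36 (−0.67), Mrpl32 (−0.42), Mrps23 (−0.40), Mrpl34 (−0.39) and Mrpl44 (−0.37) made up the rest of the lower members. Mrpl32 is cleaved by a mitochondrial protease before it joins the ribosome, and Mrpl44 is related to a ribonuclease. Higher in female knockouts were Mrpl41 (log2 fold change 0.47, SE 0.17, adjusted p = 0.0486) and Mrpl42 (0.40, SE 0.12, adjusted p = 0.0156), both large-subunit proteins found only in mitochondria. Mrpl42 had 470, 642 and 754 CPM in knockouts and 418, 475 and 618 CPM in controls.

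Mrps21, Mrps14, Mrpl43, Mrpl3 and Mrpl42 kept their call in 14 of 14 refits that each left out 1 library. The call of Mrpl42 was lost with no filter on low counts (adjusted p = 0.198) and without ribosomal libraries under 750000 counts (adjusted p = 0.0931). Mrpl41 and Mrpl32 kept it in 2 of 14, Mrpl44 in 6, and Mrpl36 and Mrpl34 in 7. Mrpl40 lost it without female control 14, female control 15 or female knockout 2 (adjusted p = 0.0584, 0.118 and 0.0554), and Mrps23 without female knockout 2 (adjusted p = 0.0501). Under 7 other settings of the processing, Mrpl40 and Mrpl41 kept their call in 3, Mrpl32 in 1 and Mrpl42 and Mrpl44 in 5. Mrpl36, Mrps23 and Mrpl34 kept theirs in 6, and Mrps21, Mrps14, Mrpl43 and Mrpl3 in all 7. The count of called members was 6 without female control 14, female control 15 or female knockout 2, and 7 without female control 17. For this and later counts with 1 library left out, the share of all genes called was not set beside them unless printed.

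Several measures differed between these libraries beside the members. All 7 tested mRNAs of mitochondrial DNA were higher in female knockout ribosomal libraries, at a sum of 6006 to 27661 CPM against 1635 to 7179 CPM in female controls. Endothelial markers were higher in 5 of 5 tested, at a sum of 74.9 to 316 CPM in female knockouts against 67.3 to 122 CPM in female controls. Fibroblast markers were higher in 7 of 8, at 418 to 1226 CPM in female knockouts against 228 to 381 CPM in female controls, and red blood cell markers in 5 of 5, at 335 to 1251 CPM in female knockouts against 156 to 309 CPM in female controls. Macrophage markers summed to 47.6 to 133 CPM in female knockouts and 25 to 38.9 CPM in female controls. None of these markers was at 0 in all libraries of either group. The lists held 8 endothelial and 6 red blood cell markers, and those not tested were too low. A marker can pass the filter on low counts through the group where it is high, so these counts only describe the libraries. Reads outside genes made up 6.53 to 12.5% (median 9.11%) in female knockouts and 5 to 10% (median 5.38%) in female controls, and the median depth was 936900 counts in female knockouts and 1589142 in female controls. The part of these measures in the result was not tested.

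In ribosomal RNA of males, 3 members were higher and 3 lower in knockouts, 6 of 74 (8.11%), where 8.96% of genes were called, 4.09% higher and 4.87% lower. Mrps28 had 188, 238 and 298 CPM in male knockouts and 77.6, 176 and 226 CPM in male controls, a log2 fold change of 0.62 (SE 0.16, adjusted p = 0.0119). Mrpl10, which anchors the stalk to the large subunit, had 38.9, 52.4 and 73.8 CPM in knockouts and 23, 30.4 and 43.9 CPM in controls (log2 fold change 0.57, SE 0.14, adjusted p = 0.00756). The groups of both genes overlapped, and both calls held in 14 of 14 refits that each left out 1 library. In a fit of all 56 libraries Mrps28 was not called (adjusted p = 0.0839).

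Mrpl12, the stalk protein itself, was lower. It had 287, 320 and 334 CPM in male knockouts and 341, 410 and 590 CPM in male controls (log2 fold change −0.42, SE 0.13, adjusted p = 0.0296), with no overlap between the groups. Mrpl41 was higher (0.50, SE 0.15, adjusted p = 0.0318), and Mrps25 (−0.45, no overlap between groups) and Mrps18a (−0.36) were lower. Their calls held in fewer refits, namely 8 of 14 for Mrpl12 and for Mrpl41, 5 for Mrps18a and 3 for Mrps25. Without male knockout 6, 10, 13 or 14 the count was 3. Without male knockout 1, a ribosomal library with kidney transcripts, it was 5 (6.76%, against 7.71% of genes). That setting was chosen after the data were seen. Red blood cell markers were higher in 5 of 5 tested, at a sum of 416 to 607 CPM in male knockouts against 187 to 301 CPM in male controls, with no overlap and none at 0. No fibroblast marker (0 of 8) and no endothelial marker (0 of 5) was called, and the part of these cells in the result was not tested.

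In total RNA of females, 3 members were higher in knockouts and 0 lower, 4% of 75, where 8.49% of 12860 genes were called, 3.79% higher and 4.7% lower. By sign alone, 62 of 75 members (82.7%) had a fold change above 0, against 52.3% of all genes, with a median of 0.10 against 0.01. The share of members above 0 was 65.3% in male total, 46% in female ribosomal and 50% in male ribosomal RNA. For all genes it was 50.2%, 48.5% and 49.2%. Members are not independent of each other. In total RNA the median correlation between 2 members, after removing group means, was 0.16, against −0.0013 among all genes. Mrpl2 had 59.5, 72.5 and 76.1 CPM in female knockouts and 48.3, 55 and 66.7 CPM in female controls (log2 fold change 0.32, SE 0.08, adjusted p = 0.0118). Mrpl42, with 277, 293 and 330 CPM in knockouts and 221, 251 and 266 CPM in controls, differed by 0.26 (SE 0.08, adjusted p = 0.0359). Mrpl17, at the exit of the peptide tunnel, had 82.2, 89.6 and 96.7 CPM in knockouts and 68, 74.5 and 79.9 CPM in controls, a difference of 0.24 (SE 0.07, adjusted p = 0.0366). The knockout and control libraries of Mrpl42 and Mrpl17 did not overlap, and those of Mrpl2 did.

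Mrpl2 was called in 14 of 14 refits that each left out 1 library, Mrpl42 in 9 and Mrpl17 in 7, and in a fit of all 56 libraries none of the 3 was called. The count was 1 without female knockout 1, female knockout 10 or female control 19, and 7 without female knockout 9. Fibroblast markers were higher in 5 of 8 in these knockouts, at a sum of 2215 to 3649 CPM against 1349 to 2562 CPM in controls. Red blood cell markers were higher in 5 of 5, at 660 to 1852 CPM in female knockouts against 564 to 896 CPM in female controls. Macrophage markers summed to 150 to 218 CPM in female knockouts and 73 to 137 CPM in female controls. Endothelial sums went the other way, with 344 to 440 CPM in female knockouts and 417 to 485 CPM in female controls. No marker of these lists was at 0 in all libraries of a group, and their part in the result was not tested.

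In total RNA of males, 12 members were higher and 3 lower in knockouts, 15 of 75 (20%), where 14.2% of genes were called; 16% of members were higher and 4% lower, against 6.83% and 7.36% of genes. The median member stood at 0.09 and that of all genes at 0.00. Mrpl41 led. It had 48.5, 53.6 and 65.6 CPM in male knockouts and 24.5, 35.5 and 49.1 CPM in male controls, a log2 fold change of 0.62 (SE 0.12, adjusted p = 0.00128). All but the highest control lay below the lowest knockout.

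Small-subunit members that rose in male total RNA were Mrps11 (log2 fold change 0.55), Mrps21 (0.55), Mrps22 (0.35), Mrps14 (0.29) and Mrps17 (0.27). Mrps21 had 21.9, 30.9 and 39.1 CPM in male knockouts and 6.79, 20.8 and 26.6 CPM in male controls (SE 0.19, adjusted p = 0.0452). Among large-subunit members, Mrpl57 (0.43), Mrpl33 (0.42), Mrpl40 (0.38), Mrpl55 (0.31), Mrps30 (0.30) and Mrpl17 (0.26) rose. Mrpl55 had 104, 108 and 128 CPM in knockouts and 85.2, 89.8 and 104 CPM in controls (SE 0.07, adjusted p = 0.00602). Mrps34 (−0.45), Mrpl34 (−0.33) and Mrps7 (−0.23) fell; Mrps34 shares exons with Nme3 on its own strand and with Mapk8ip3 on the other.

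**Figure D3:**
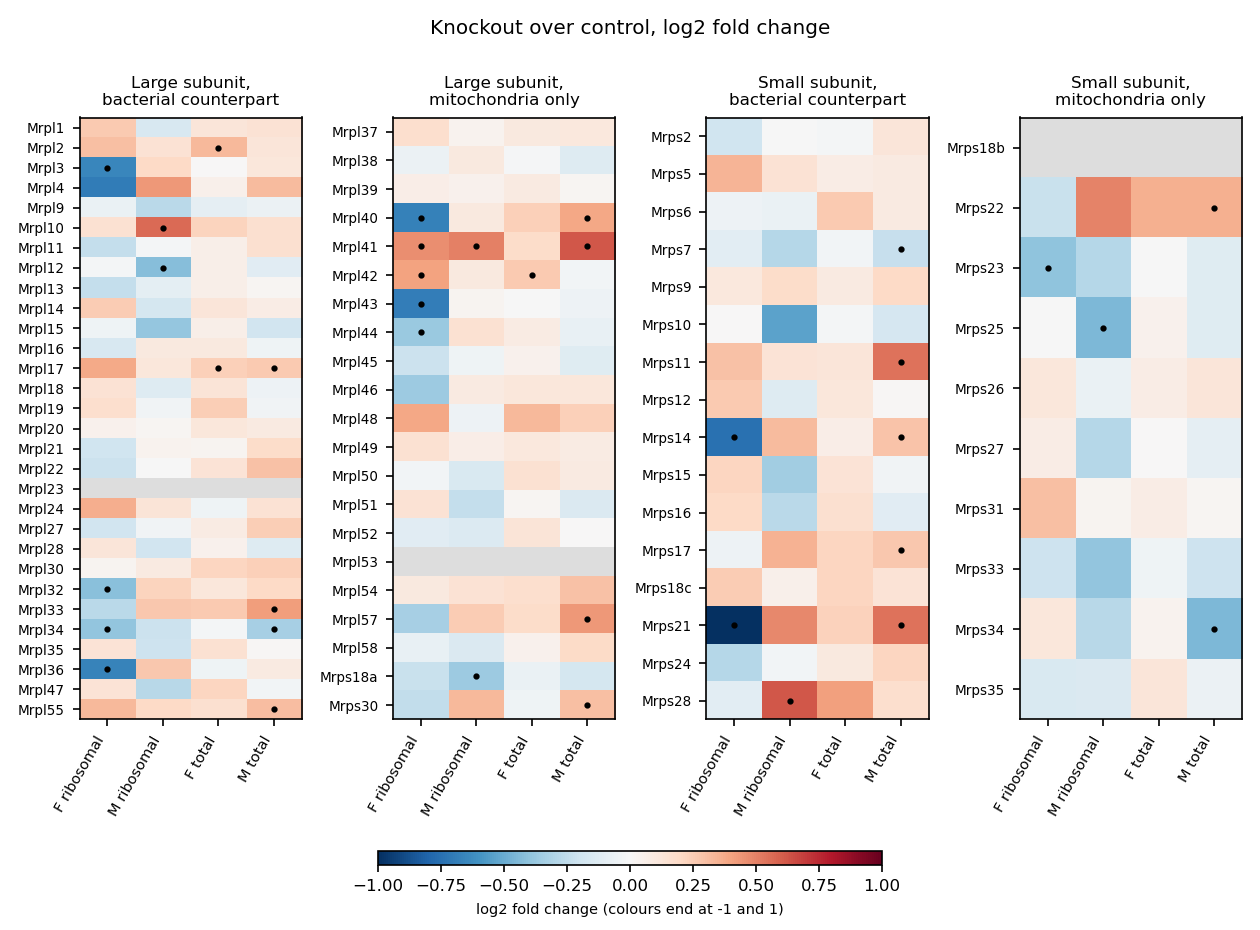
Log2 fold change of knockout over control for each member of the 4 subunit classes (rows) in females and males, ribosomal and total RNA (columns). Mrps36, which is in none of these classes, is not drawn. Dots mark calls at an adjusted p under 0.05 and grey rows were too low to test. The darkest blue is Mrps21 in female ribosomal RNA (−1.43), and Mrpl41 is red and marked in 3 of the 4 columns.

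Reads outside genes made up 12.4 to 23.4% in male control total libraries and 9.78 to 13.9% in male knockout ones. Without the total libraries over 19%, which are male controls 25, 26 and 27, female control 14 and female knockout 9, 2 of 76 members tested were called, Mrpl41 and Mrps17, and 645 of 13264 genes (4.86%). Leaving out 1 library at a time, the count was 9 without male knockout 14 or male control 25, 7 without male control 26 and 6 without male control 27. Without male knockout 6, a total library with kidney transcripts, it was 12 (15.8%, against 11.6% of genes). That setting was again chosen after the data were seen. Mrpl57 was not called without male control 27 (adjusted p = 0.0523), nor Mrps34 without male control 26 or 27 (adjusted p = 0.0573 and 0.0606). Mrpl41, Mrpl40, Mrpl55, Mrps30, Mrpl17 and Mrps17 kept their call in 14 of 14 such refits, Mrps11, Mrpl33, Mrps14 and Mrpl34 in 8, Mrps21 and Mrps22 in 6 and Mrps7 in 5. Fibroblast markers were higher in 8 of 8, at 2868 to 4180 CPM in male knockouts against 1741 to 2871 CPM in male controls. Red blood cell markers were higher in 5 of 5 tested, at 1266 to 2187 CPM in male knockouts against 597 to 877 CPM in male controls. No marker of either list was at 0, and their part in the result was not tested.

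Over the 4 knockout comparisons, 28 of the 75 members tested (37.3%) were called at least once, where 28.7% of 12884 genes were, and 7 (9.33%) in at least 2, where 8.73% of genes were. The other 47 were called in none. Mrpl41 alone was called in 3: it was higher in ribosomal RNA of both sexes and in total RNA of males. In female total RNA its level was 39.7, 47.2 and 57 CPM in knockouts and 34, 40.6 and 58.1 CPM in controls, with a log2 fold change of 0.18 (adjusted p = 0.366). Mrpl17 was the member called in total RNA of both sexes, with 72.6, 87.6 and 106 CPM in male knockouts and 61.5, 73.2 and 83.4 CPM in male controls.

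**Figure D4:**
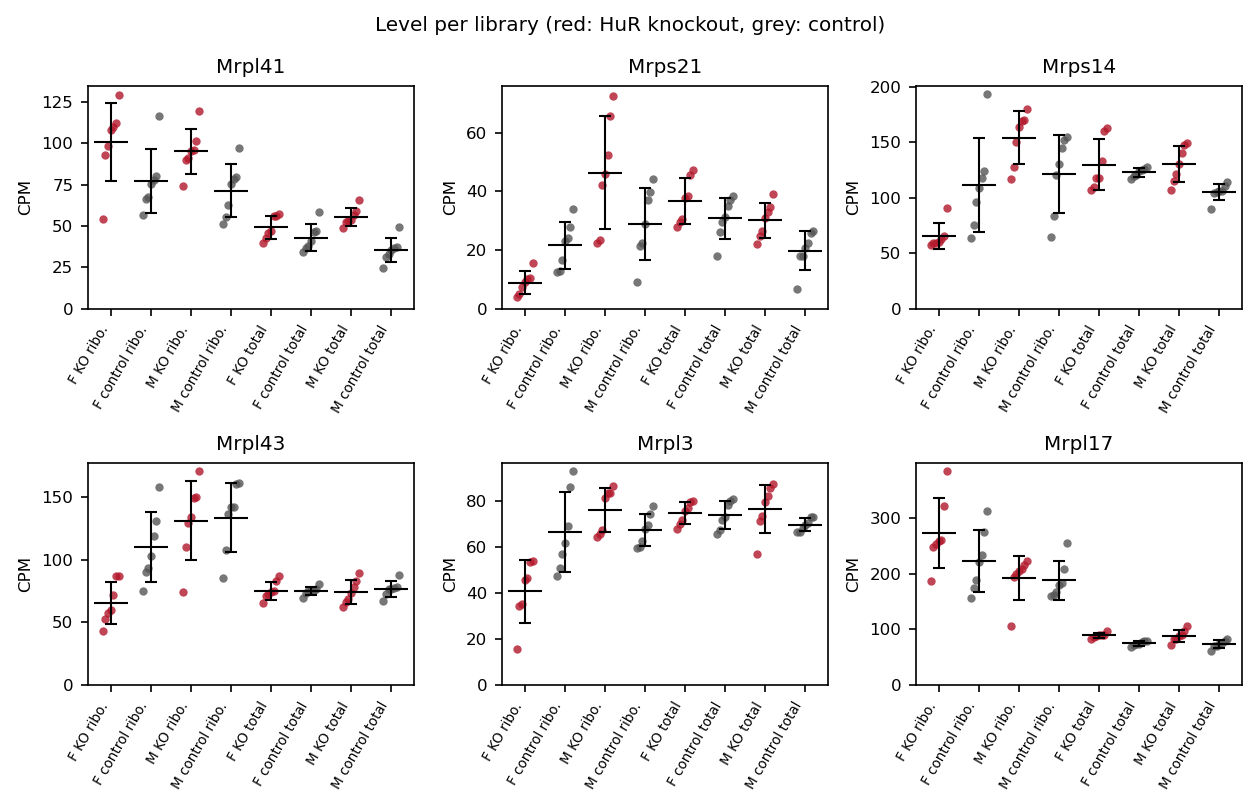
Level of 6 members in each library (y axis, CPM, from 0) in the 8 groups (x axis, 7 libraries each); points are libraries, horizontal marks the mean and bars the SD. Mrps21, Mrps14, Mrpl43 and Mrpl3 are low in female knockout ribosomal libraries, the mean of Mrpl41 is higher in knockouts than in controls of each sex and RNA type, and that of Mrpl17 is higher in knockouts in total RNA of both sexes.

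Medians were also taken by the letters ATTTA in the 3′ UTR. Members with it and without it stood at −0.05 and 0.01 in female ribosomal, −0.03 and 0.03 in male ribosomal, 0.11 and 0.09 in female total and 0.09 and 0.11 in male total RNA. Among all tested genes the same pairs were −0.04 and 0.01, 0.01 and −0.04, 0.00 and 0.03, and −0.02 and 0.04.

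Genes of other lists named here were picked by lowest p within their list and do not stand for the whole list. In female ribosomal RNA, Chchd1, a small-subunit protein under another name, was lower in knockouts (−0.37), and the recycling factor Mrrf was higher (0.45). Esrra and Ppargc1a, regulators of mitochondrial genes, were lower there (−0.56 and −0.70). In male ribosomal RNA the release factor Mtrf1l was higher (0.57) and the rRNA methyltransferase Mrm1 lower (−0.56). In female total RNA Esrra was lower (−0.38) and no gene of the translation factor, assembly or tRNA synthetase lists was called. In male total RNA the assembly factor Malsu1 was higher (0.51) and Nsun4, which methylates mitochondrial rRNA, was lower (−0.41). For nuclear subunits of oxidative phosphorylation, 1 was higher and 14 were lower of 80 in female knockout ribosomal RNA. That is 18.8% called and 17.5% lower, where 16.8% and 8.41% of all genes were. The counts were 0 higher and 1 lower in male ribosomal, 0 and 0 in female total, and 8 and 1 in male total RNA, the last being 11.2% called where 14.2% of genes were.

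The difference between the sexes in the knockout effect was tested as an interaction. In ribosomal RNA, 4 members differed, 5.41% of 74, where 3.43% of genes were called, 1.89% higher and 1.54% lower in males. All had a higher fold change in males: Mrps21 by 1.91 (SE 0.44, adjusted p = 0.0145), Mrps14 by 1.07 (SE 0.26, adjusted p = 0.0185), Mrpl3 by 0.85 (SE 0.21, adjusted p = 0.0224) and Mrps30 by 0.57 (SE 0.16, adjusted p = 0.0388). In male ribosomal libraries Mrps21 had 22.3, 46 and 72.4 CPM in knockouts and 9.22, 28.9 and 44.2 CPM in controls, a log2 fold change of 0.48 that did not pass (adjusted p = 0.211). Its fold change was below 0 in females and above 0 in males.

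Without female control 15, Mrps14 and Mrpl3 were not called (adjusted p = 0.0511 and 0.0555) and the count was 1, while Mrps30 was called in 14 of 28 refits. The count was 8 without female knockout 10, female control 18, female control 19 or male control 22, again without the share of all genes. In total RNA edgeR called 0 of 75 members for this interaction, where 0.0% of genes were called; 6 had an unadjusted p under 0.05, and DESeq2 and limma-voom also called 0. The lowest p there belonged to Mrps30 (0.35), Mrps34 (−0.48) and Mrpl41 (0.44), none of which passed.

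The difference between RNA types in the knockout effect was tested likewise. In females 6 members, 8% of 75, had a lower fold change in ribosomal than in total RNA, where 3.46% of genes were called, 1.85% higher and 1.61% lower. They were Mrps21 (−1.75, SE 0.42, adjusted p = 0.0137), Mrpl40 (−0.999, SE 0.23, adjusted p = 0.0107), Mrps14 (−0.90, SE 0.22, adjusted p = 0.0132), Mrpl43 (−0.76, SE 0.19, adjusted p = 0.0149), Mrpl3 (−0.73, SE 0.17, adjusted p = 0.0119) and Mrpl44 (−0.52, SE 0.15, adjusted p = 0.0372). Mrpl43 in total RNA was at 65.5 to 86.6 CPM in female knockouts and 69.3 to 80.7 CPM in female controls. With the mouse as a replicate block, Mrpl3 and Mrpl44 did not pass (adjusted p = 0.0508 and 0.0717). That left 4 members called (5.33%, against 2.08% of genes). Mrps21 did not pass with limma-voom (adjusted p = 0.0627). Mrpl44 was called in 16 of 28 refits that each left out 1 library. Without female control 15 (ribosomal) 0 were called, and without female knockout 10 (ribosomal) or female knockout 9 (total) 11 were. Shares of all genes in these refits were not set beside them. In males edgeR called 0 of 75, where 0.128% of genes were called (0.0319% higher, 0.0956% lower). In males 5 members had an unadjusted p under 0.05, and DESeq2 and limma-voom called 0. The median member stood at −0.15 in females and −0.14 in males, and that of all genes at −0.01 in both. Fold changes lay above 0 in 22.7% of members in females and 25.3% in males, against 48.8% and 48.5% of genes. With limma-voom the member medians were −0.15 in females and −0.05 in males.

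Between control males and control females, 2 of 74 members differed in ribosomal RNA and 4 of 75 in total RNA. In ribosomal RNA that is 2.7%, where 7.63% of genes were called, 4.25% higher and 3.37% lower in males. In total RNA it is 5.33%, where 8.7% of genes were called, 4.75% higher and 3.95% lower. Mrps28 had 77.6, 176 and 226 CPM in male and 237, 244 and 258 CPM in female control ribosomal libraries, with no overlap and a log2 fold change of −0.63 (SE 0.16, adjusted p = 0.0123). Mrpl18 was higher in males there (0.45, SE 0.12, adjusted p = 0.0151), and its exons overlap Tcp1 on the other strand. In total RNA Mrpl12 had 136, 167 and 200 CPM in male and 108, 122 and 131 CPM in female controls, again with no overlap, a log2 fold change of 0.44 (SE 0.10, adjusted p = 0.0051). Mrps16 was also higher in males (0.31), and Mrps30 (−0.32) and Mrps21 (−0.62) were lower.

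The sex counts moved with single libraries, and shares of all genes called were not set beside them. In ribosomal RNA 8 members were called without female control 15 and 10 without male control 20. In total RNA the count was 1 without female control 18, which also ended the call of Mrps30 (adjusted p = 0.0545), and 2 without female control 16 or male control 23, 25 or 27. Mrps28 and Mrpl12 kept their calls in 14 of 14 refits, but Mrps28 was not called in a fit of all 56 libraries (adjusted p = 0.0847), nor Mrpl12 without total libraries over 19% outside genes (adjusted p = 0.0832). Mrps21 kept its call in 7 refits and Mrps16 in 6.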

How the data were processed

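The deposited table gives a whole count per gene and library, used as deposited. The submitters' processing notes name STAR, HTSeq and UMI-tools as tools of the authors, and GRCm39 as the build. Per the labels, 500 ng of RNA went into each QuantSeq 3′ library, read for 50 bases. The 5 HTSeq summary lines were left out; reads outside genes were 4.82 to 12.5% in ribosomal and 9.54 to 23.4% in total libraries.

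Genes were filtered (filterByExpr), TMM-scaled and tested by quasi-likelihood in edgeR 4.0.16 (R 4.3.3), with 28 ribosomal libraries in 1 fit, 28 total in another and all 56 across RNA types. Adjusted p-values (Benjamini-Hochberg) run over all genes tested, and calls are under 0.05. Alternatives were RLE, no filter, DESeq2 1.42.0, limma-voom 3.58.1, depth filters, other fits, a mouse block and each library left out. Same-numbered libraries of a sex and genotype were taken as 1 mouse from the number in their titles, which do not state it. Mean correlations of their deviations were 0.154 (female knockout), 0.065 (female control), 0.0519 (male knockout) and −0.145 (male control). Between libraries of other numbers they were −0.0254, −0.0116, −0.00791 and 0.0243.

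Members and lists were chosen with earlier results of these data known. Named members are those called, up to 8 each way, or the 3 of lowest p.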

Additional observations from a re-analysis of the deposited data

Results flagged for a closer look

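Of 320 sets of 7 libraries (40 named members in 8 groups), 27 held 1 library apart from the other 6. The rule was Dixon's gap over range, with a critical value of 0.568. For independent, normal values that limit sets 1 in about 20 apart by chance. Sets of a group share the same libraries, so the count cannot be held against that rate. Male control 20 (ribosomal) stood apart for 7 members, at 276.5 CPM for Mrpl2, 224 for Mrps7, 424 for Mrps12, 740 for Mrpl15 and 189 for Mrpl28, all above the other libraries, and at 69.1 for Mrpl44 and 46.1 for Mrps17, both below. Male knockout 2 (ribosomal), the shallowest library with 160313 counts, was below the others for Mrps23 (90.2 CPM), Mrps25 (32.8), Mrpl17 (107) and Mrps12 (156).

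Female knockout 5 (ribosomal) was below the others for Mrpl55 (169 CPM), Mrps34 (179), Mrps18c (48.9) and Mrpl38 (43.9), and had the lowest summed member level of its group. Female control 18 (ribosomal) was above the others for Mrpl41 (117 CPM) and Mrpl38 (153). Other ribosomal libraries apart from their group were female knockout 10 for Mrps14 (91 CPM), female control 19 for Mrps25 (233) and male knockout 10 for Mrpl1 (206).

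In total RNA, male control 26 stood apart for Mrps14 (89.7 CPM) and Mrps7 (99.9), female knockout 12 for Mrps28 (23.1), and female knockout 6 for Mrpl37 (71.1). Female control 19 did so for Mrpl40 (22.2 CPM), female control 14 for Mrpl33 (137) and female control 21 for Mrpl1 (103).

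Effects differed between groups by the interaction test for 4 members between sexes in ribosomal RNA (male minus female effect) and 6 members between RNA types in females (ribosomal minus total effect). The first were Mrps21 (1.91), Mrps14 (1.07), Mrpl3 (0.85) and Mrps30 (0.57). The second were Mrps21 (−1.75), Mrpl40 (−0.999), Mrps14 (−0.90), Mrpl43 (−0.76), Mrpl3 (−0.73) and Mrpl44 (−0.52).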

How the results depend on the processing

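Named members stood in 71 comparisons, of which 63 were called. Among the 71, called or not, 25 had the same call in every refit and setting. Of 1933 recomputed values of named members, 1629 kept their direction and side of the threshold, 286 lost the call, 4 gained one and 14 changed sign. All 14 were Mrps36 between RNA types, which was never called: −0.20 with RLE, −0.040 with no filter, −0.20 with DESeq2, −0.014 with limma-voom, −0.19 without total libraries over 19% outside genes, −0.20 in females alone, −0.44 in knockouts, and −0.076 to 0.11 over the refits with 1 library left out. The mouse block left 66 members higher in ribosomal RNA and changed no call of a named member there; in the female comparison of RNA types it left 4.

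Between RNA types the member median was 0.65 with RLE and 0.65 with DESeq2, and 0.98 above the median of all genes in both, against 0.97 as reported. Other counts moved as follows, and the cause was not tested. Brackets hold the percentage of members called and then that of all genes tested. Fitting the 14 libraries alone gave 5 calls in female ribosomal RNA (6.94%, 13.3%) and 7 in male total RNA (9.33%, 11.3%). With limma-voom there were 11 in male ribosomal RNA, 10 for the sex interaction in ribosomal RNA and 14 between control sexes in ribosomal RNA, where it called 1749, 684 and 1874 of 9098 genes against 815, 312 and 694 as reported. With no filter there were 1 in female total (1.28%, 2.82%) and 8 in male total RNA (10.3%, 5.37%). There were 7 for the ribosomal sex interaction (8.97%, 2.42%) and 2 between control sexes in total RNA (2.56%, 3.09%). DESeq2 gave 5 in female total RNA (6.67%, 10%). All 56 libraries in 1 fit gave 0 in female total (0.0%, 5.85%) and 8 in male total RNA (10.7%, 10.5%). That fit gave 10 for the ribosomal sex interaction (13.3%, 6.61%) and 2 between control sexes in total RNA (2.67%, 5.97%). Without total libraries over 19% outside genes there were 2 in male total RNA (2.63%, 4.86%) and 0 between control sexes (0.0%, 8.4%).

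Leaving out 1 library gave 6 to 15 calls in female ribosomal, 3 to 5 in male ribosomal, 1 to 7 in female total and 6 to 16 in male total RNA. It gave 1 to 8 for the ribosomal sex interaction, 0 to 11 for the female comparison of RNA types, 2 to 10 between control sexes in ribosomal and 1 to 6 in total RNA, and 65 to 67 between RNA types. Shares of all genes called were not set beside these left-out counts. The ribosomal library with fewest member counts held 890. Without ribosomal libraries under 750000 counts 11 members were called in females (14.9%, against 16.8% of genes) and 9 in males (12.2%, against 12.1%).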
